A study of Homo sapiens with 4 samples.

Results

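The block described here is the stretch of chromosome 1, in band 1p34, from 39000000 to 42700000 on GRCh38, in which neighbouring genes had higher RNA counts in THP-1 than in K562 cells. All 43 protein-coding genes annotated wholly inside this stretch were listed in the deposited table, out of 20348 genes in all, and all of them were taken as members whatever their values. The stretch itself was picked because its genes were higher in THP-1, so the difference between the lines is given as a description, without a test. On the plus strand lay 23 members and on the minus strand 20.

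K562 is a human line from a chronic myeloid leukemia and THP-1 a human line from an acute monocytic leukemia. Each line was grown for 72 h with the solvent DMSO or with 100 nM periplocin, a cardiac glycoside of plant origin, and poly-A RNA was sequenced. This gave 4 libraries, 1 for each line and condition (K562 DMSO, K562 periplocin, THP-1 DMSO and THP-1 periplocin). Every group is thus a single culture of a single line, no group has a replicate, and the intervals below cover counting error only. The sample labels call the DMSO cultures blank controls, and the dose and time come from the study's methods. A value shared by the THP-1 libraries cannot be told apart from a property of that one culture or stock of the line.

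The libraries held between 16381172 and 20622719 counts. All 9 erythroid markers were past 2-fold higher in K562 than in THP-1 in DMSO, with summed levels of 2086 and 8638 CPM (counts scaled to a common library size) in the K562 DMSO and periplocin libraries against 11.2 and 8.69 in the THP-1 pair. Of 9 monocytic markers, 8 were past 2-fold higher in THP-1, with summed levels of 1127 and 1301 CPM against 106 and 116, and FCN1 was at 0 in all 4 libraries. Of markers of other cell types, the epithelial EPCAM had 743 and 737 counts in K562 and 2 and 1 in THP-1, while CD3E and COL1A1 did not exceed 23 counts in any library. Each line was thus higher than the other in most of the markers listed for it. Differences below are on the log2 scale after TMM scaling, a difference of at least 1 (2-fold) is called, and a gene enters a comparison where its mean over the pair is at least 1 CPM. Counts are relative to the library total, so more RNA from the block per cell and less RNA from other genes cannot be told apart.

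Band 1p34 is best known for MYCL, the MYC family gene that is amplified in some small cell lung cancers, where it can be fused to its neighbour RLF. The block holds genes of unrelated function. They include the actin regulator CAP1, the lysosomal thioesterase PPT1, the NF-Y subunit NFYC, the CTP synthase CTPS1 and the lamin-processing protease ZMPSTE24, which many cell types use, beside genes of restricted use such as the cartilage collagen COL9A2 and the neuronal calcium sensor HPCAL4. The files hold RNA counts only, and DNA copy number and chromatin were not analysed here.

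The members together took 0.312% of all counts in K562 DMSO and 0.321% in K562 periplocin. The THP-1 values were 2.41% with DMSO and 3.13% with periplocin. Much of this came from CAP1, a cyclase-associated protein that turns over actin filaments, and from PPT1, which removes palmitate from proteins in the lysosome. This pair made up 53.8% and 63.0% of the block's counts in the THP-1 libraries and 16.9% and 22.4% in the K562 libraries. Without the pair, the other members still took 1.11% and 1.16% of the THP-1 counts against 0.259% and 0.249% of the K562 counts.

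**Figure D1:**
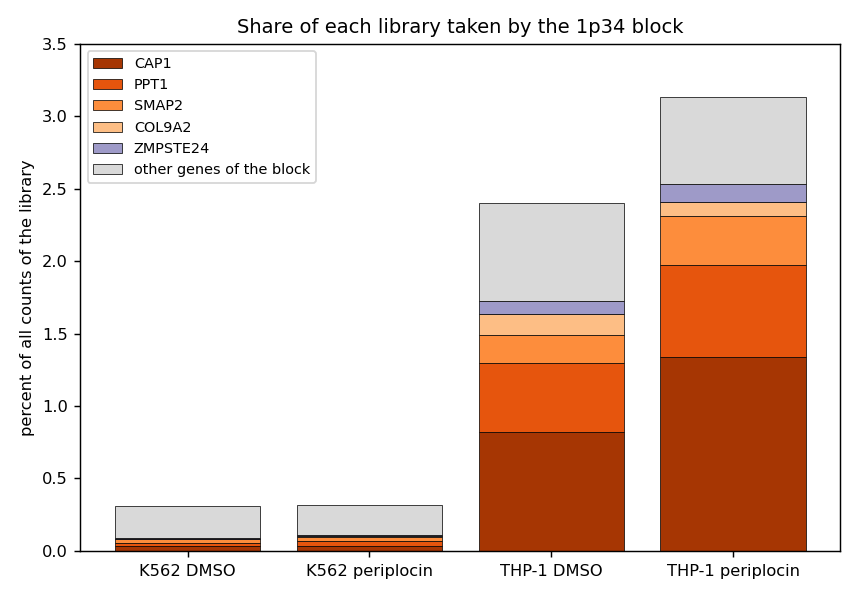
Share of each library's counts taken by the members of the block (percent, linear axis from 0), with the parts of CAP1, PPT1, SMAP2, COL9A2, ZMPSTE24 and the other members stacked. The THP-1 bars reach 2.41% and 3.13%, the K562 bars 0.312% and 0.321%.

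In DMSO, 36 of the 43 members passed the filter. Of these, 32 were past 2-fold higher in THP-1 (88.9%), 0 were past 2-fold lower, and 4 were neither. BMP8A, NT5C1A, MFSD2A, EXO5, CITED4, RIMKLA, ZMYND12 and CCDC30 were under 1 CPM in K562 DMSO and passed only through their THP-1 level. The members called higher include all of them, and all but BMP8A were past 8-fold. Over all 12849 genes that passed, 22.9% were past 2-fold higher and 21.1% past 2-fold lower, and these shares are given as background only, since the members were chosen on this contrast. The member median was 3.12 on the log2 scale against 0.03 over all genes, and 20 members were past 8-fold. The median member level was 8.03 CPM in K562 DMSO and 169 CPM in THP-1 DMSO, while the median of all genes was 5.27 and 6.43 CPM.

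**Figure D2:**
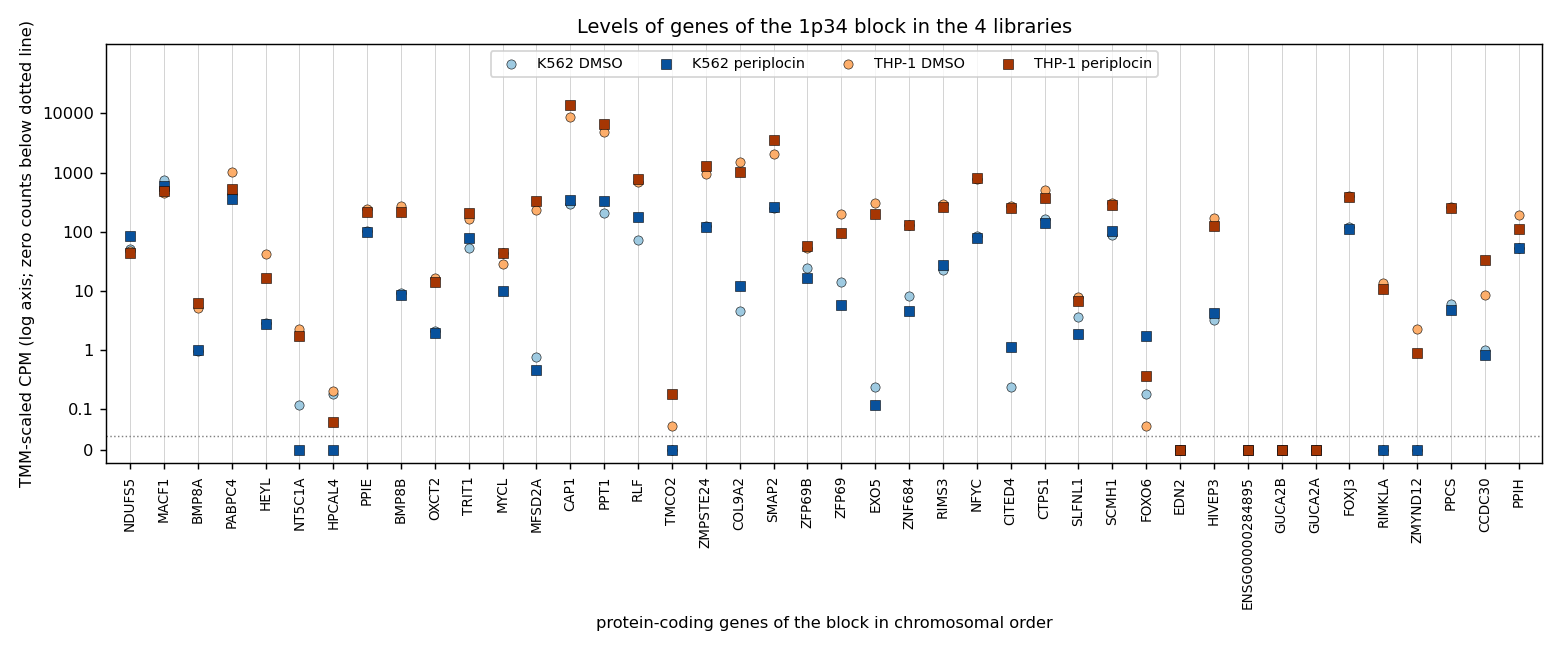
Levels of members of the block in the 4 libraries, in chromosomal order (TMM-scaled CPM, log axis, zero counts drawn below the dotted line). For most genes from BMP8A to PPIH both THP-1 points lie above both K562 points, while MACF1, NDUFS5, MYCL, HPCAL4 and FOXO6 depart from this order. Genes at 0 in all 4 libraries have no order.

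CAP1 and PPT1 were the most counted members in THP-1. CAP1 (ENSG00000131236, chr1:40040233-40072649) had 5098 and 6072 counts in the K562 libraries, DMSO first and periplocin after it as in all pairs below, and 169056 and 237588 in the THP-1 libraries. Among all genes it had rank 3 in the DMSO library of THP-1 and rank 1 in the periplocin library, against ranks 490 and 439 in the K562 libraries. The THP-1 level was 28.6-fold that of K562 in DMSO, a log2 difference of 4.84 (95% counting interval 4.80 to 4.88). PPT1, whose 3′ end overlaps that of CAP1 on the opposite strand, had 3539 and 5820 counts in K562 and 97813 and 112285 in THP-1, a 23.9-fold difference in DMSO. On a per-length scale (counts divided by the length of the longest transcript and brought to the same sum in each library, as TPM are), the CAP1 level was 292 and 367 in the K562 libraries and 7855 and 13721 in the THP-1 libraries. On the same scale SMAP2, an Arf GTPase-activating protein of clathrin-coated traffic, followed CAP1 and PPT1 in THP-1 periplocin with a level of 3685, and COL9A2 had 1493 in THP-1 DMSO against 4.67 in K562 DMSO.

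Several genes of the block had far fewer counts in K562 than in THP-1. COL9A2 was near the all-gene median in K562 DMSO (4.45 against 5.27 CPM) and above it in K562 periplocin (12.1 against 4.43 CPM). ZMYND12 and NT5C1A were below that median in THP-1 DMSO, at 2.23 and 2.28 against 6.43 CPM. MFSD2A, which carries lysophosphatidylcholine with omega-3 fatty acids into cells, had 13 and 8 counts in K562 and 4615 and 5588 in THP-1, a 304-fold difference in DMSO. COL9A2, a chain of the cartilage collagen type IX, had 76 and 210 counts in K562 and 29877 and 17005 in THP-1, a 339-fold difference in DMSO. EXO5, a single-strand DNA exonuclease of DNA repair, had 4 and 2 counts against 6104 and 3307. CITED4, a binding partner of the coactivators CBP and p300, had 4 and 19 counts against 5386 and 4302. With K562 counts this low the DMSO differences were wide, at 10.32 (9.01 to 12.24) for EXO5 and 10.14 (8.83 to 12.06) for CITED4 on the log2 scale. RIMKLA, which joins N-acetylaspartate to glutamate, had 0 counts in both K562 libraries and 269 and 179 in THP-1, so it was at least 77.4-fold higher in DMSO against a floor of 3 counts. ZMYND12, a MYND zinc finger gene, likewise had 0 counts in K562 and 44 and 15 in THP-1, at least 12.7-fold higher in DMSO. The nucleotidase gene NT5C1A had 2 and 0 counts in K562 and 45 and 29 in THP-1, a DMSO difference of 4.20 (2.34 to 7.37). For each of these genes both THP-1 libraries lay above both K562 libraries.

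The sequence ahead of 4 of these genes and of CAP1 is shown because these genes had very wide gaps between the lines or, for CAP1, the highest counts of the block. Each sequence runs 5′ to 3′ on the gene's own strand from RefSeq (GRCh38.p14), starts 250 bases before the RefSeq start nearest to the gene's annotated 5′ end and stops before the gene begins in GENCODE 29. Capitals mark the CCAAT box, the letters bound by NF-Y, read as CCAAT or on the other strand as ATTGG. CAP1 lies at chr1:40039990-40040232 (plus), MFSD2A at chr1:39954895-39955111 (plus), EXO5 at chr1:40508517-40508740 (plus), CITED4 at chr1:40862367-40862613 (minus) and RIMKLA at chr1:42380542-42380791 (plus).
CAP1: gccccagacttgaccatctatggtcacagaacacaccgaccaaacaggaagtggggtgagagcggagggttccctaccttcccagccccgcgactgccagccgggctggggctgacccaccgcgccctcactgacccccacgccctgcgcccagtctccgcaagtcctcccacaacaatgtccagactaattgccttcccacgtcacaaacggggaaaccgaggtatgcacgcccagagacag
MFSD2A: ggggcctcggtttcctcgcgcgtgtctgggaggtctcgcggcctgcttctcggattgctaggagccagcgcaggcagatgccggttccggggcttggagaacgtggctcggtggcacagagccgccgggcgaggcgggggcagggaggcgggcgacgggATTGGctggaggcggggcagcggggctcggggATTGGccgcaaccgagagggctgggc
EXO5: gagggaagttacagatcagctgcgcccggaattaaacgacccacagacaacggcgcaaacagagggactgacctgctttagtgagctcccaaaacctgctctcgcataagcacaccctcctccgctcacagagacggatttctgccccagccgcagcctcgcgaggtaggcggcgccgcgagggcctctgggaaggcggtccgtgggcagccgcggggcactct
CITED4: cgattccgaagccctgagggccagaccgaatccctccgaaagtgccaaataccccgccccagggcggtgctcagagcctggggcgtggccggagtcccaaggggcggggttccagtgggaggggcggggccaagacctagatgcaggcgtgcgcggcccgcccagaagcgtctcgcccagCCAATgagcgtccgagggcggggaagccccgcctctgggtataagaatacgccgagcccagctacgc
RIMKLA: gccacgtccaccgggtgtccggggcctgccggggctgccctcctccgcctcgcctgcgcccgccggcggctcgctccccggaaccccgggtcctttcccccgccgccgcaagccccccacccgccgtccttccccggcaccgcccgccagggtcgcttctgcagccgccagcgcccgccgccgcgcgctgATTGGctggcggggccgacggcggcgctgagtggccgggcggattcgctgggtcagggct
In the printed sequences MFSD2A holds 2 such boxes, CITED4 and RIMKLA 1 each, and CAP1 and EXO5 0. The whole window of CAP1, which runs past the printed end, does hold CCAAT and counts as such below. Over whole windows of 250 bases before to 50 after a start, 35 of the 43 members had an entry in the RefSeq table, with 49 windows in all. CCAAT on either strand was in 32.7% of these windows and in 34.6% of all 35116 windows of the table. GAGGAAG, letters of the site of the myeloid factor PU.1, was in 6.12% of member windows against 13.6% of all, and AGATAA, letters of the erythroid GATA site, in 4.08% against 10.3%. The E-box CACGTG was in 10.2% against 7.26% and the TATA box letters TATAAA in 2.04% against 11.5%. In the order given, the member shares rest on only 16, 3, 2, 5 and 1 of the 49 windows, and some genes, such as NFYC, have several windows. These differences in share were not tested. Both strands were searched for each motif, no motif contains another, and no value of a factor's binding goes with these matches.

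Other members past 8-fold had a wide range of functions. Regulators of transcription among them were RLF, a zinc finger protein, with 1228 and 3015 counts in K562 and 13753 and 13192 in THP-1; NFYC, with 1450 and 1351 against 15309 and 13459; HEYL, a repressor of the Notch pathway, with 48 and 47 against 817 and 280; and HIVEP3, a large zinc finger protein, with 54 and 72 against 3333 and 2103. In DMSO these were 9.67-fold, 9.12-fold, 14.7-fold and 53.2-fold higher in THP-1. PPCS, an enzyme of coenzyme A synthesis, had 100 and 82 counts in K562 and 5108 and 4327 in THP-1, 44.1-fold higher in DMSO. BMP8B, a ligand of the TGF-β superfamily, had 159 and 146 against 5353 and 3645, 29.1-fold higher. SMAP2 had 4303 and 4543 counts in K562 and 40183 and 60399 in THP-1, a DMSO difference of 3.01 on the log2 scale. The KRAB zinc finger gene ZFP69 had 239 and 98 counts against 3945 and 1614, and ZNF684, of the same family, 137 and 79 against 2599 and 2167, differences of 3.83 and 4.03. Their neighbour ZFP69B differed less, with 408 and 285 counts against 1045 and 951, a difference of 1.15. RIMS3, a protein of presynaptic vesicle release, had 377 and 466 counts against 5809 and 4379, a difference of 3.73. In all of these the lower THP-1 library exceeded the higher K562 library. The 20 members past 8-fold had a median longest transcript of 2913 bases and a median GC content of 51.1%, against 3714 bases and 48.2% over all genes tested, and 11 lay on the plus strand and 9 on the minus strand.

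The 12 members between 2-fold and 8-fold were mostly genes already well expressed in K562. ZMPSTE24 had 2103 and 2058 counts in K562 and 18473 and 21569 in THP-1, a DMSO difference of 2.92. PABPC4, a cytoplasmic poly(A)-binding protein, had 7470 and 6236 against 20154 and 9000, a difference of 1.22. CTPS1 had 2743 and 2435 against 10127 and 6395, a difference of 1.67. The cyclophilins of the spliceosome, PPIE and PPIH, differed by 1.20 and 1.88, the tRNA-modifying enzyme TRIT1 by 1.61 (912 and 1370 counts in K562 against 3219 and 3437), the Polycomb gene SCMH1 by 1.80 and the forkhead gene FOXJ3 by 1.78. SLFNL1, a schlafen-like gene, was among the least counted of this group, with 61 and 32 counts against 153 and 115, a difference of 1.11, and under scaling by total counts it was no longer past 2-fold in DMSO. These values lay below the member median, and each gene was higher in both THP-1 libraries than in both K562 libraries.

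A few members stood outside the pattern. MACF1, a giant linker of actin and microtubules, had 12612 and 10376 counts in K562 and 8911 and 8153 in THP-1, differences of -0.71 in DMSO and -0.31 in periplocin, and it was the most counted member in K562. NDUFS5, a subunit of respiratory complex I, had 882 and 1453 against 930 and 722, differences of -0.14 and -0.97. Both lie at the left end of the stretch. MYCL lies inside it. MYCL (ENSG00000116990, chr1:39895426-39902256) had 734 and 171 counts in K562 and 557 and 723 in THP-1, so the lines differed by -0.61 (-0.77 to -0.45) in DMSO and by 2.12 (1.88 to 2.37) in periplocin. For MYCL the counts of the lines overlapped across conditions. Those of NDUFS5 overlapped only before scaling, with 51.7 and 83.6 CPM in K562 and 47.1 and 42.7 CPM in THP-1. The genes for endothelin 2 (EDN2), guanylin and uroguanylin (GUCA2A and GUCA2B) and ENSG00000284895 were at 0 in all 4 libraries, which allows up to 3 counts in each, and TMCO2 did not exceed 3 counts. HPCAL4, a neuronal calcium sensor, had 3, 0, 4 and 1 counts, which is too few to compare.

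In periplocin, 35 members passed the filter, of which 30 were past 2-fold higher in THP-1 (85.7%) and 2 past 2-fold lower, against 24.7% higher and 22.8% lower over 12860 genes. BMP8A, MFSD2A, EXO5, RIMKLA and CCDC30 were under 1 CPM in K562 periplocin and passed only through THP-1, and FOXO6 only through K562. The member median was 2.82 against -0.05 over all genes. The lower members included the forkhead gene FOXO6, which had 3 and 30 counts in K562 and 1 and 6 in THP-1, a periplocin difference of -2.26 (-3.84 to -0.995). The neither group was NDUFS5, MACF1 and PABPC4. Past 2-fold higher in both conditions were 29 members, and among the 34 that passed in both the difference was smaller in periplocin for 18. It was larger for CAP1, at 40.2-fold in periplocin against 28.6-fold in DMSO, and for MFSD2A, at 706-fold against 304-fold, and smaller for COL9A2, at 83.1-fold against 339-fold, and RLF, at 4.49-fold against 9.67-fold. RIMKLA was at least 61.3-fold higher in periplocin. ZMYND12 and NT5C1A did not pass the filter in periplocin and stay out of these counts, and against the floor they were at least 5.14-fold and at least 9.93-fold higher.

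The edges of the block were followed with a running median over 7 neighbouring protein-coding genes of chromosome 1. In DMSO this median stayed at 1 or more over 38 genes from BMP8A to ENSG00000283580 (chr1:39491646-42794493), of which 34 were members and 36 were past 2-fold higher, and it was highest at FOXJ3, at 5.46. In periplocin it stayed there over 37 genes from PABPC4 to TMEM269 (chr1:39560816-42816619), again highest at FOXJ3, at 4.90. FOXJ3 itself differed by 1.78 in DMSO and 1.85 in periplocin, and the place of the peak moved with the settings of the running median. The first and last members lay at the weak ends. Just inside the stretch were NDUFS5, with the values above, and PPIH, with 893 and 918 counts in K562 and 3817 and 1854 in THP-1. Just outside, AKIRIN1, which crosses the left limit, had 4281 and 4607 against 2001 and 2494 counts, differences of -1.31 and -0.85. YBX1, a cold-shock RNA-binding protein gene that crosses the right limit, had 18891 and 24687 against 110880 and 94611, differences of 2.34 and 1.98. On the left the first member past 2-fold in DMSO was BMP8A, and on the right genes past 2-fold ran on beyond the limit. The counts of BMP8A are uncertain because it shares sequence with BMP8B. At a mean of 5 CPM the DMSO stretch ran from PABPC4 to C1orf50.

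**Figure D3:**
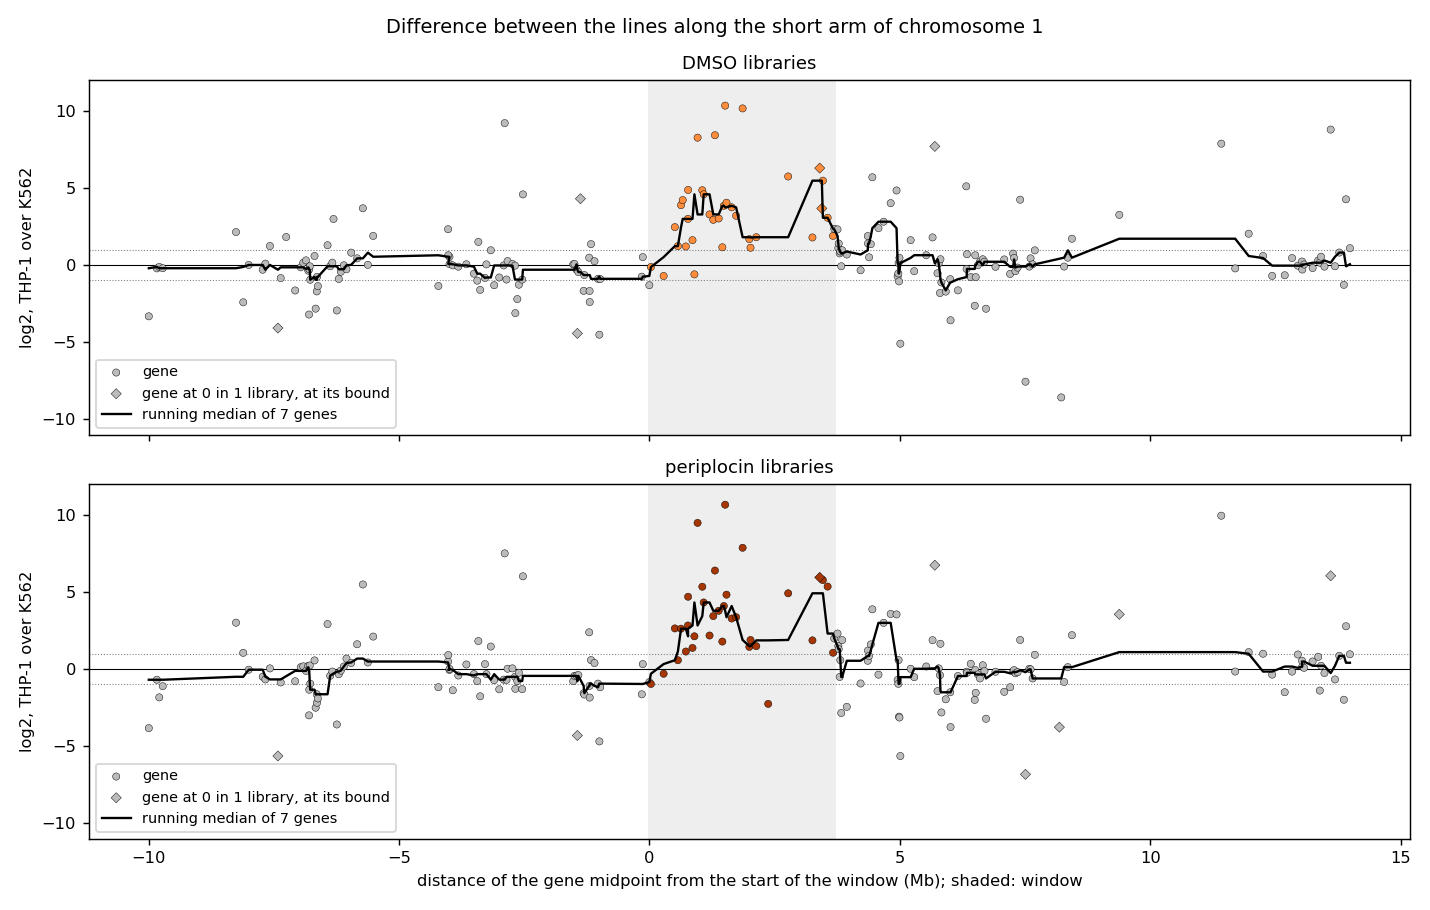
Difference between the lines (log2, THP-1 over K562) of single genes along the short arm of chromosome 1, by distance of the gene midpoint from the start of the window (Mb), in DMSO (top) and periplocin (bottom). Coloured points are members, grey points other genes, diamonds genes at 0 in 1 library drawn at their bound, and the line is the running median of 7 genes, which exceeds 1 over most of the shaded window and reaches 5.46 and 4.90.

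Among the 10 nearest genes before the stretch, 6 passed the filter in DMSO, of which 0 were past 2-fold higher and 2 past 2-fold lower (FHL3 at -4.52 and AKIRIN1), with a median of -0.91. Among the 10 nearest after it, 9 passed, of which 4 were past 2-fold higher (YBX1, P3H1 at 2.30, C1orf50 at 1.10 and ENSG00000283580 at 1.39) and 0 lower, with a median of 0.95. C1orf50 (chr1:42767269-42779488) and ENSG00000283580 (chr1:42767292-42794493) overlap on the same strand, so they are not separate places. ENSG00000283580 had 27 and 23 counts in K562 and 82 and 55 in THP-1. In periplocin 5 of the 9 that passed on that side were past 2-fold higher and 2 past 2-fold lower, with a median of 1.29. The lower pair was the erythrocyte membrane gene ERMAP, at -2.85, and the glucose transporter gene SLC2A1, at -2.45. Before the stretch, 0 of 6 were higher and 3 lower in periplocin, with a median of -1.07. Over stretches of the block's own length in DMSO, 5 of 38 genes before it were past 2-fold higher and 11 lower, and 15 of 57 after it were past 2-fold higher and 9 lower, with medians of -0.61 and 0.36. In periplocin these were 5 higher and 12 lower of 37 before it, and 13 higher and 15 lower of 56 after it, with medians of -0.69 and -0.19. Within the stretch after it, the run from CDC20 to ARTN, chosen after its values were seen, had 8 of 9 genes past 2-fold higher in DMSO and 6 of 9 in periplocin, with medians of 2.39 and 1.59. It included the demethylase gene KDM4A, with 1512 and 1029 counts in K562 and 12214 and 7948 in THP-1, and the sialyltransferase gene ST3GAL3, with 373 and 304 against 6935 and 3506.

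Among 430 autosomal windows of the same length, the block included, each with at least 10 genes passing, the block had the median of rank 2 in DMSO and of rank 2 in periplocin. The highest median of another window was 4.03 in DMSO and 3.77 in periplocin, the median over windows was 0.06 in DMSO, and 22 windows, the block among them, had a DMSO median of at least 1. This gives the scale of the difference only, since the block was picked for it. The windows of chromosome 1 were also aligned to the block, while those of the other autosomes began at the start of the chromosome.

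**Figure D4:**
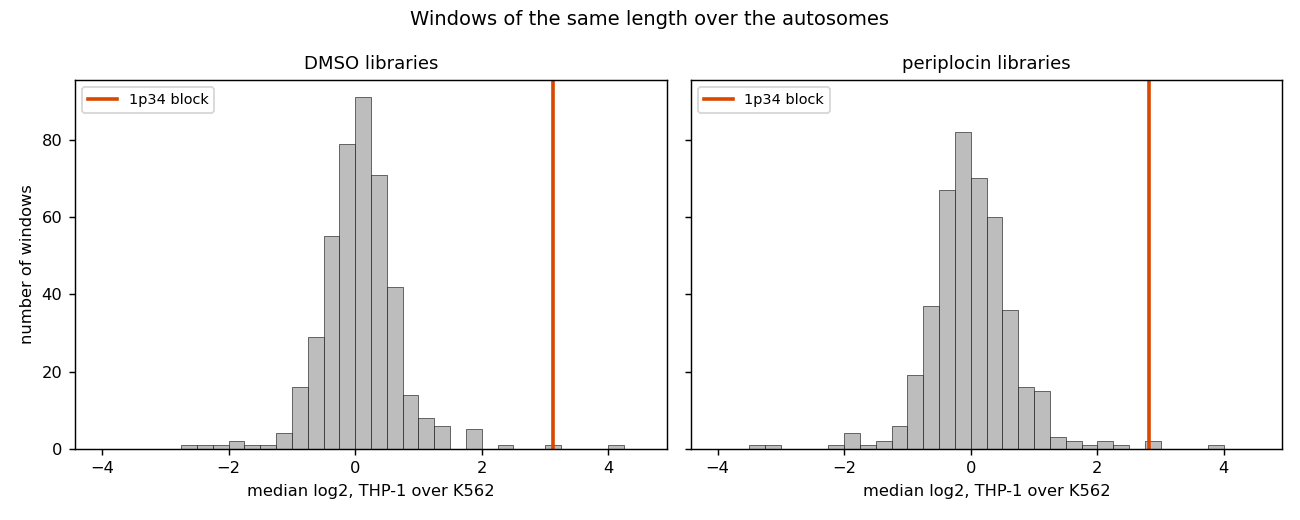
Number of autosomal windows of the block's length by their median log2 difference, THP-1 over K562, in DMSO (left) and periplocin (right). The vertical line marks the 1p34 block, at 3.12 and 2.82.

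The effect of periplocin within the block was not used to choose it. In K562, 28 members passed the filter, of which 2 were past 2-fold higher with periplocin (RLF and COL9A2) and 2 past 2-fold lower (MYCL and ZFP69). Over all 11814 genes, 8.86% were past 2-fold higher and 11.4% past 2-fold lower, 20.3% in either direction, and the members' share of 7.14% in each direction was near this background. The member median was -0.06 against -0.01 over all genes. RLF went from 1228 to 3015 counts, a change of 1.27 (1.17 to 1.37), and COL9A2 from 76 to 210, a change of 1.44 (1.05 to 1.84). MYCL went from 734 to 171 counts, a change of -2.13 (-2.38 to -1.89), and ZFP69 from 239 to 98, a change of -1.31 (-1.67 to -0.97). Beside these changes the erythroid marker sum went from 2086 to 8638 CPM, and its part in them was not tested.

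In THP-1, 36 members passed, of which 1 was past 2-fold higher with periplocin (CCDC30) and 4 past 2-fold lower (HEYL, ZFP69 and ZMYND12 among them), against 8.06% and 10.7% over 12391 genes and 18.7% in either direction. The member median was -0.11 against -0.03 over all genes. CCDC30, a coiled-coil gene, went from 165 to 557 counts, a change of 1.98 (1.73 to 2.24), and had 17 and 14 counts in K562. HEYL went from 817 to 280 counts (-1.32) and ZFP69 from 3945 to 1614 (-1.07, -1.15 to -0.98). ZMYND12 went from 44 to 15 counts, a change of -1.32 (-2.28 to -0.46). The most counted members changed less than 2-fold, with CAP1 at 0.71, SMAP2 at 0.81, PPT1 at 0.42 and COL9A2 at -0.59 in THP-1. In K562 these stood at 0.23, 0.05, 0.69 and 1.44.

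**Figure D5:**
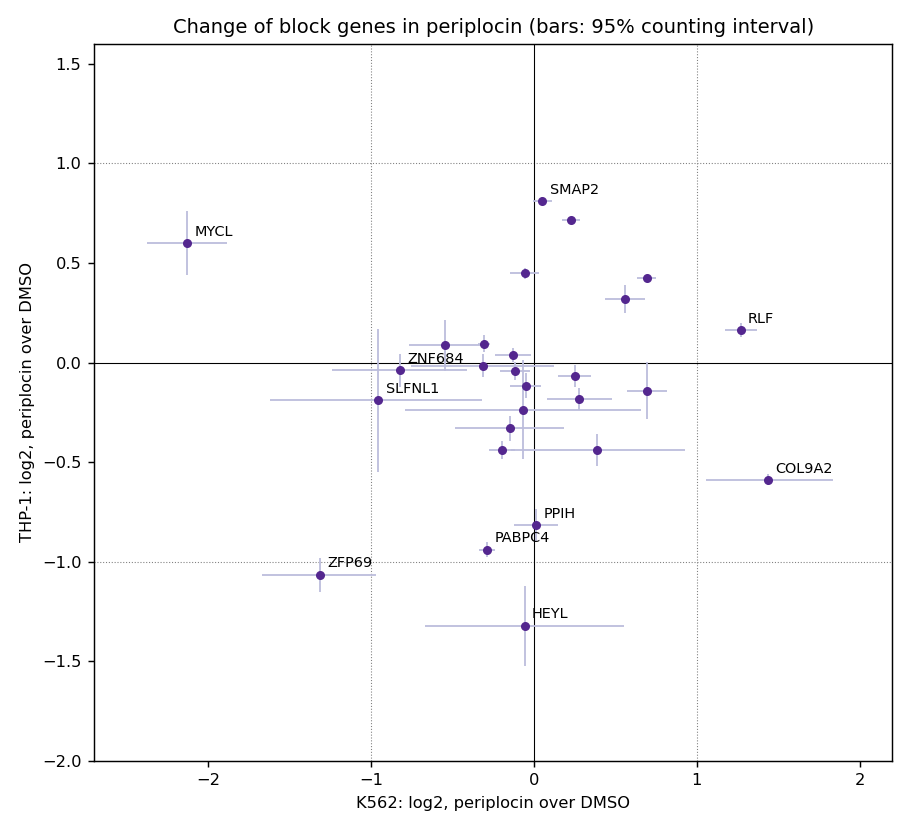
Change with periplocin (log2, periplocin over DMSO) of each member in K562 and in THP-1, for the members that passed the filter in both lines, with bars for the 95% counting interval. Most lie within 1 log2 of 0 in both lines, and ZFP69 is below -1 in both. MYCL and COL9A2 are each past 1 log2 in K562 with the opposite sign in THP-1. Other members, such as MACF1 and HIVEP3, have opposite signs with changes under 1 log2.

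Both lines were also fitted together by edgeR's quasi-likelihood test with line and drug as terms, over 13584 genes, with 1 residual degree of freedom, so that the error is how far the lines differ in their response. At a Benjamini-Hochberg adjusted p under 0.05, 0 of the 36 members tested and 0 of all genes (0.0%) passed. At an unadjusted p under 0.05, 1 member passed, against 11.3% of all genes, and it was ZFP69, with a log2 change of -1.17 and an edgeR quasi-likelihood adjusted p of 0.361. DESeq2 called 123 of 11584 genes (1.06%) and 0 of the 34 members to which it gave an adjusted p, and its adjusted p for ZFP69 was 0.106. These tests compare 4 libraries, and they say nothing of a drug effect that differs between the lines.

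Relatives and pathway partners of the members elsewhere in the genome were read beside them, as a list of 48 genes. Of the 39 that passed the filter in DMSO, 9 were past 2-fold higher in THP-1 and 8 past 2-fold lower (23.1% and 20.5%, beside 22.9% and 21.1% over all genes), with a median of -0.13. In periplocin it was 9 higher and 7 lower of 37 (24.3% and 18.9%, beside 24.7% and 22.8% over all genes), with a median of -0.04. NFYA and NFYB, which form NF-Y with NFYC, differed by 1.82 and -0.38 in DMSO. In DMSO CTPS2 differed by -1.27 where CTPS1 differed by 1.67, and SMAP1 by -0.37 where SMAP2 differed by 3.01. PPT2, the other lysosomal thioesterase of this kind, had 755 and 2320 counts in K562 and 40 and 53 in THP-1, a DMSO difference of -4.45, opposite in sign to that of PPT1. CITED2 was higher in THP-1 as CITED4 was, with 741 and 1487 counts against 7203 and 5659. Relatives of CAP1, COL9A2, RIMS3 and HIVEP3 were also past 2-fold higher in DMSO, namely CAP2 (4.54), COL9A3 (4.82), RIMS4 (5.97) and HIVEP2 (1.81). CAP2, COL9A3 and RIMS4 did not exceed 8 counts in K562. Past 2-fold lower in DMSO were HEY1 (-6.08), HIVEP1 (-2.59) and RIMKLB (-1.69), and MFSD2B, with 0 counts in THP-1. Among partners of PPCS in coenzyme A synthesis, PPCDC, COASY and PANK2 differed by -0.33, -0.68 and -1.01 in DMSO and PANK1 and PANK3 by 0.78 and 0.85. Among partners of ZMPSTE24, the enzymes ICMT, RCE1, FNTA and FNTB differed by 0.32, -0.78, 0.29 and -0.13 in DMSO, and their substrate LMNA by -0.41. In periplocin the enzymes differed by -0.09, -0.71, 0.71 and 0.23, and LMNA by 1.11, with 6714 counts in K562 and 14106 in THP-1. The members' own DMSO differences in these pathways were 5.46 for PPCS and 2.92 for ZMPSTE24.

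Some members overlap a neighbour or share sequence with another gene, and reads shared between genes were not measured. In 6 pairs the genes overlap from gene start to gene end, introns included, 3 of them on opposite strands. PPIE and BMP8B overlap by 6733 bases and CAP1 and PPT1 by 1189, both on opposite strands, while PPCS and CCDC30 overlap by 10056 bases on the same strand, and how the counting treated strand is not given in the sources used here. OXCT2, the testis form of a ketone body enzyme, shares 69.4% of its 50-base runs with transcripts of other genes, foremost its pseudogene OXCT2P1, and BMP8A shares 36.8%, foremost with BMP8B. The counts of OXCT2 (35 and 34 in K562, 322 and 234 in THP-1) and BMP8A (16 and 17 against 102 and 103) are therefore uncertain. For CAP1 the share was 5.53%, and 32 members shared under 1%.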

How the data were processed

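Poly-A RNA of 4 cultures was sequenced. The authors deposited expected counts per gene and library, unnormalized, and between 87.4% and 88.3% of the values are whole. HISAT2, StringTie 1.3.1 and hg38 are named in the submitters' processing notes, without their roles. Members and gene lists were chosen with earlier results of these data known. Gene positions and types came from GENCODE 29 (20118 of 20348 identifiers found), and promoter sequences were matched by symbol to a RefSeq table. Of the table's sample columns, 0 were left unused.

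Expected counts were rounded and scaled with TMM over the 4 libraries (edgeR 4.0.16, R 4.3.3). Log2 differences used a prior count of 0.125, and their 95% intervals are exact conditional binomial (Clopper-Pearson) ones. PCR reads are not independent molecules, so these cover counting error only. Against a count of 0, a floor of 3 counts gave a lower bound. The quasi-likelihood fit kept a gene where 2 or more libraries held 10 or more counts. DESeq2 1.42.0 was the alternative, and 8764 genes without an adjusted p stayed out. Scripts were tested on simulated data. The genes named were the members, the 10 nearest genes on each side, the listed relatives and partners, and the markers. The values of 1 member and of 1 marker are not reported here, though the counts and medians include them. TMEM269 and the genes from CDC20 to ARTN are named outside this rule. Alternatives were other scalings, filters, priors, thresholds and limits of the block.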

Additional observations from a re-analysis of the deposited data

Results flagged for a closer look

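For 2 of the members described the change with periplocin went past 2-fold in 1 line and the opposite way in the other, with counting intervals on opposite sides of 0. With 1 library per condition no test of that contrast between the lines was possible and it was not tested, and each value below is the log2 change in THP-1 minus that in K562. For MYCL it was 2.73, from -2.13 in K562 and 0.60 (0.44 to 0.76) in THP-1. For COL9A2 it was -2.03, from 1.44 in K562 and -0.59 (-0.62 to -0.56) in THP-1.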

How the results depend on the processing

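No paired analysis was possible because the labels give no replicate numbers to pair libraries by, beyond the fit over 4 libraries, which has the line as a term. With 1 library per condition no replicate could be left out. With total counts in place of TMM the DMSO member median was 3.003, 31 members were past 2-fold higher, and the median of all genes moved to -0.10. With the partly overlapping genes AKIRIN1 and YBX1 added, the DMSO median was 3.04 and 1 gene was past 2-fold lower. From BMP8B to PPCS alone the medians were 3.73 in DMSO and 3.43 in periplocin, and 0 members were past 2-fold higher with periplocin in THP-1. With every gene of at least 1 count kept, 1 member was past 2-fold lower in DMSO, 4 were higher and 4 lower with periplocin in K562, and 3 were higher with periplocin in THP-1. At a mean of 5 CPM, 1 member was lower in periplocin. At a log2 difference of at least 2, 1 member was lower in periplocin, 0 were higher and 1 lower with the drug in K562, and 0 were higher and 0 lower with the drug in THP-1. The causes were not tested, beyond the number of genes that each filter keeps. With a running median over 11 genes, or at a mean of 5 CPM, the DMSO stretch held 38 and 33 genes. The DMSO running median was then highest at COL9A2 (4.03) and at MYCL (4.58), and in periplocin at COL9A2 (4.31) and at HIVEP3 (4.90). The quasi-likelihood test on genes with at least 1 count called 2 of 17197 genes and 0 of 39 members, with 2 members (ZFP69 and FOXO6) at an unadjusted p under 0.05. Scaling by total counts moved 4 of 135 values of single members across 2-fold (SLFNL1 in DMSO, and NDUFS5, PPIE and PPIH in periplocin). No value of a single member changed sign past the threshold under another scaling. With 1 library per condition, spread between cultures is unknown, and members under about 10 counts in K562 have folds with wide intervals.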
